A study of Homo sapiens with 12 samples.

Results

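To determine how genes of the mitochondrial ribosome responded to insulin and to mutant PIK3CA, the mitochondrial ribosomal protein (MRP) genes were examined in RNA-seq of 12Z cells, an endometriotic epithelial line that was immortalized in culture. Members were the protein-coding genes whose symbol is MRPL or MRPS followed by a number and at most 1 letter. The rule used names alone and found 78 of 60617 gene identifiers, 19892 of them protein-coding. All cells received non-targeting siRNA and then a plasmid by transient transfection, after which they spent 4 h in serum-free medium and 24 h with insulin or vehicle. H1047R insulin cells carried pBabe with PIK3CA H1047R, an activating mutation of the catalytic subunit of phosphoinositide 3-kinase, and received 100 nM insulin. H1047R vehicle cells carried that plasmid and received vehicle. Control insulin cells carried empty pBabe and received 100 nM insulin, and control vehicle cells carried empty pBabe and received vehicle. There were 3 libraries per group from independent experiments, 12 in all, of 1 cell line. Transfection was transient, so a library is a mixture of cells with different amounts of plasmid.

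Mitochondria carry their own ribosome, which makes the few proteins encoded by mitochondrial DNA, all of them subunits of the respiratory chain or ATP synthase. Its rRNAs come from mitochondrial DNA, whereas its proteins are encoded in the nucleus, made in the cytosol and imported. Proteins of the large subunit are named MRPL and those of the small subunit MRPS, some inherited from the bacterial ancestor and others found only in mitochondria. Names are not always a guide, since MRPS30 and MRPS18A sit in the large subunit and MRPS36 belongs to the 2-oxoglutarate dehydrogenase complex. Of the 78 members, 51 encode large subunit proteins and 26 small subunit proteins, and 48 have a bacterial homolog while 29 are specific to mitochondria. They lie on 21 chromosomes.

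PIK3CA was examined first. It was at 734, 714 and 715 CPM (counts scaled to a common library size) in H1047R insulin, 312, 180.1 and 215 CPM in H1047R vehicle, 81.1, 85.9 and 80.9 CPM in control insulin and 89.0, 88.2 and 88.6 CPM in control vehicle. Every H1047R library was above every control library, and H1047R insulin was above H1047R vehicle by 1.62 ± 0.0839 on the log2 scale (SE, adjusted p = 5.33e-19). H1047R insulin thus differed from the other groups in PIK3CA level as well as in treatment, and H1047R vehicle replicate 1 stood above its replicates. Total gene counts were 30071951 to 37918025 in H1047R insulin and 21483124 to 29255708 in the other 9 libraries. Reads placed at several sites, which are left out of the counts, made up 8.48 to 9.51% of reads in H1047R insulin and 13.6 to 15.4% elsewhere. MRP genes have processed pseudogenes that can take such reads, and the part of this difference in the results was not tested. The keratins KRT8, KRT18 and KRT19 were at 565 to 1504 CPM in all libraries, and KRT7 was at 47.9 to 63.2 CPM. However, the epithelial markers EPCAM and CDH1 reached at most 1.06 and 2.38 CPM and the stromal collagen COL1A1 was at 1966 CPM or more. With insulin in H1047R cells, KRT19 rose by 0.24 ± 0.0364 and KRT7 fell by 0.30 ± 0.0479 on the log2 scale. The other epithelial markers were not called there. All 6 stromal markers measured fell with insulin in H1047R cells, with a summed level of 3244 to 3363 CPM in H1047R insulin and 5072 to 5501 CPM in H1047R vehicle. Of 4 leukocyte markers CD3E had no count and CD14 was the highest at 2.94 to 5.69 CPM, and none of the 3 tested was called with insulin in H1047R cells. Of 3 endothelial markers, VWF rose to 3.95 ± 0.174 CPM in H1047R insulin, against 2.09 ± 0.445 CPM in H1047R vehicle. The part of these markers in the results was not tested.

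Levels of MRP genes spanned a wide range from member to member, with means of 1.02 to 189 CPM. Of the 78 members, 77 passed the filter of a mean of at least 1 count per library, and these made up 0.392 to 0.428% of gene counts. The exception was MRPL53 (chromosome 2, 74471982 to 74472687 in hg38), which had at most 2 counts in any library and shares 99.2% of its exon bases with CCDC142 on the same strand. The mean level had a median of 45 CPM over the 77 members, and 69 averaged at least 10 CPM. Per kilobase of the canonical transcript, the highest was MRPL51, a mitochondria-specific large subunit protein, at 211 CPM. MRPL33, the homolog of bacterial L33, followed at 104 CPM per kilobase and MRPL37 at 101 CPM per kilobase. MRPL18 and MRPS7 came next at 82.3 and 87.5 CPM per kilobase. The lowest were MRPL38, MRPS24 and MRPS17 at 1.05, 1.54 and 3.06 CPM per kilobase. Genes overlapped by another gene on the same strand were common at the low end. At least 25% of exon bases were shared in this way by 7 of the 8 members under 10 CPM and by 3 of the 69 above it, and ambiguous reads are not counted. MRPS24, for instance, shares 90.8% of its exon bases with the read-through gene URGCP-MRPS24. Low levels of such members therefore limit what their counts can show.

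Across the 4 groups the levels stayed within narrow bounds. None of the 69 members averaging at least 10 CPM varied as much as 2-fold between its lowest and highest library, with a median ratio of 1.24 and a largest of 1.70, for MRPS2. The summed level of the 77 members was 3975 ± 7.65 CPM in H1047R insulin, 4024 ± 89.3 CPM in H1047R vehicle, 4204 ± 111 CPM in control insulin and 4072 ± 61.3 CPM in control vehicle (SD, n = 3 each). Libraries of H1047R insulin ranged from 3966 to 3980 CPM and lay inside the range of H1047R vehicle, 3927 to 4104 CPM. They lay below those of control insulin, 4090 to 4312 CPM, and control vehicle, 4007 to 4128 CPM. As a plain share of gene counts, members averaged 0.405% in H1047R insulin, 0.401% in H1047R vehicle, 0.418% in control insulin and 0.403% in control vehicle. In bulk samples, fewer cells of a kind and less RNA per cell cannot be told apart.

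Insulin was first examined in H1047R cells. A gene was taken as changed where edgeR gave an adjusted p, or FDR, under 0.001 over all 22756 genes tested. Here 2 members rose and 7 fell, which is 11.7% of the 77 tested, while 19.6% of all tested genes were called, 9.85% higher and 9.8% lower. Among members averaging at least 10 CPM, 13% were called, against 37.4% of all genes at that level. At an FDR of 0.05 the shares were 31.2% of members and 34.3% of all genes. The median log2 fold change was 0.00 over the 77 members and -0.00 over all genes. The interquartile range ran between -0.12 and 0.09 for members and between -0.28 and 0.29 for all genes. No member moved 2-fold, whereas 542 genes were called with a change of more than 2-fold. All 9 calls were kept under all 20 alternatives. The number that rose was 10 without H1047R vehicle replicate 1, when 7 fell and 20.3% of all genes were called, 11.4% higher and 8.94% lower.

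**Figure D1:**
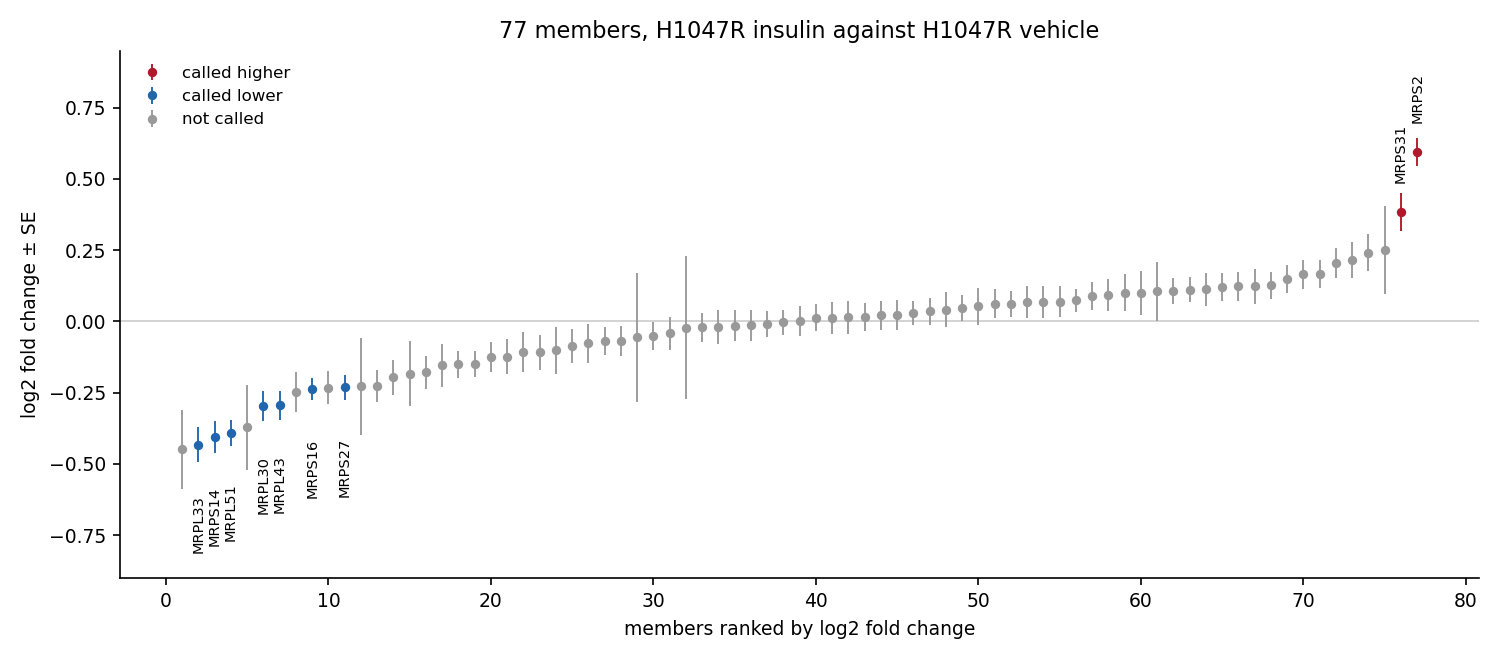
Log2 fold change of the 77 tested members in H1047R insulin against H1047R vehicle (y axis, bars are SE), ranked from lowest to highest (x axis). MRPS2 at 0.60 and MRPS31 at 0.38 are called higher, 7 members from MRPL33 at -0.43 to MRPS27 at -0.23 are called lower, and MRPL2, at 3.87 CPM on average, lies lowest at -0.45 but is not called.

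MRPS2, the small subunit homolog of bacterial S2, showed the largest rise. It was at 82.2, 75.8 and 78.4 CPM in H1047R insulin, 56.5, 50.7 and 49.3 CPM in H1047R vehicle, 48.4, 50.9 and 51.1 CPM in control insulin and 49.2, 49.1 and 49.5 CPM in control vehicle. The H1047R insulin libraries stood above the other 9, which lay close together, with H1047R vehicle replicate 1 the highest of them. The log2 fold change with insulin was 0.60 ± 0.0498 in H1047R cells (adjusted p = 6.44e-13) and 0.02 ± 0.0521 in control cells (adjusted p = 0.886). MRPS31, a mitochondria-specific small subunit protein, was at 24.5, 26.5 and 24.7 CPM in H1047R insulin against 20.4, 19.0 and 18.8 CPM in H1047R vehicle. These groups did not overlap, and the log2 fold change was 0.38 ± 0.0671 (adjusted p = 1.07e-05).

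Lower members came from both subunits. MRPL33 was at 40.7, 42.9 and 41.0 CPM in H1047R insulin, 53.3, 61.5 and 53.5 CPM in H1047R vehicle, 57.0, 51.6 and 64.6 CPM in control insulin and 57.9, 53.1 and 55.9 CPM in control vehicle. Its H1047R insulin libraries lay below the other 9, and the log2 fold change in H1047R cells was -0.43 ± 0.0611 (adjusted p = 2.13e-07). MRPS14, the homolog of bacterial S14, was at 21.6, 22.6 and 22.1 CPM in H1047R insulin, 27.7, 30.4 and 29.7 CPM in H1047R vehicle, 30.7, 31.7 and 30.7 CPM in control insulin and 30.8, 31.2 and 30.8 CPM in control vehicle. Again only the H1047R insulin libraries were low, with a log2 fold change of -0.41 ± 0.0577 (adjusted p = 2.49e-07). MRPL51, the most abundant member, was at 149, 145 and 153 CPM in H1047R insulin, 200.2, 202 and 185 CPM in H1047R vehicle, 188, 212 and 221 CPM in control insulin and 209, 206 and 199.8 CPM in control vehicle. The separation was of the same kind, and its log2 fold change was -0.39 ± 0.0457 (adjusted p = 3.60e-09).

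MRPL30, the homolog of bacterial L30, was at 46.7, 50.6 and 51.4 CPM in H1047R insulin, 54.8, 64.3 and 63.7 CPM in H1047R vehicle, 69.9, 71.6 and 72.8 CPM in control insulin and 67.6, 64.1 and 65.8 CPM in control vehicle. H1047R vehicle replicate 1 was the lowest library outside H1047R insulin. The log2 fold change with insulin in H1047R cells was -0.30 ± 0.0529 (adjusted p = 1.48e-05), and 12.7% of its exon bases are shared with other genes on its strand. MRPS16, the homolog of bacterial S16, was at 113, 118 and 114 CPM in H1047R insulin, 137, 134 and 135 CPM in H1047R vehicle, 139, 138 and 140.0 CPM in control insulin and 138, 130.1 and 132 CPM in control vehicle. The 9 libraries outside H1047R insulin lay between 130.1 and 140.0 CPM, and the log2 fold change was -0.24 ± 0.0399 (adjusted p = 5.66e-06). MRPL43, a mitochondria-specific large subunit protein, was at 57.4, 57.3 and 60.5 CPM in H1047R insulin against 77.1, 72.1 and 66.0 CPM in H1047R vehicle. MRPS27, a mitochondria-specific small subunit protein with pentatricopeptide repeats, was at 115, 123 and 124 CPM in H1047R insulin against 137, 143 and 144 CPM in H1047R vehicle. Neither gene overlapped between the 2 groups, with log2 fold changes of -0.29 ± 0.0507 and -0.23 ± 0.0426 (adjusted p = 8.06e-06 and 2.39e-05).

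**Figure D2:**
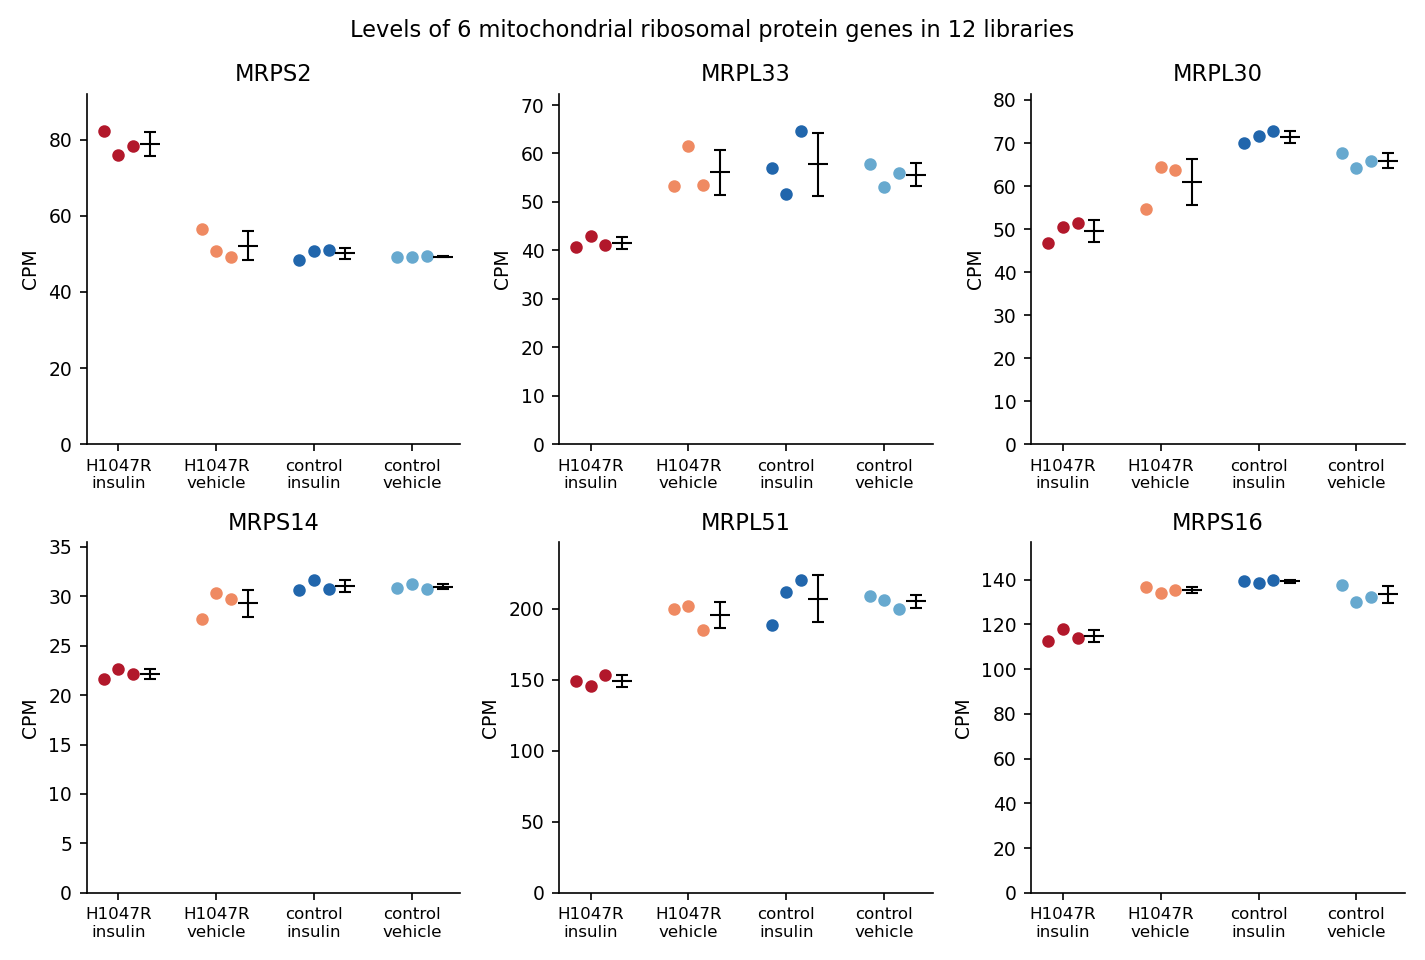
Levels in CPM of MRPS2, MRPL33, MRPL30, MRPS14, MRPL51 and MRPS16 by library (1 point per library, 12 in all, with group mean and SD in black, n = 3). The H1047R insulin libraries lie apart from the other 9 in every panel, above them for MRPS2 (75.8 to 82.2 CPM) and below them for the rest.

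Both subunits and both origins held called genes, and no difference between these classes was tested. Of 50 large subunit genes tested, 0 rose and 4 fell, and of 26 small subunit genes 2 rose and 3 fell, with median log2 fold changes of 0.01 and -0.00. Of 48 genes with a bacterial homolog, 1 rose and 4 fell, and of 28 mitochondria-specific genes 1 rose and 3 fell. In the same comparison, H1047R insulin against H1047R vehicle, 9.85% of all tested genes were called higher and 9.8% lower. The paralogs MRPS18A, MRPS18B and MRPS18C, which encode variants of the same bacterial protein, averaged 44.5, 32.3 and 40.8 CPM in H1047R insulin and 44.1, 29.6 and 38.3 CPM in H1047R vehicle. Their log2 fold changes were 0.01, 0.12 and 0.09 (SE 0.0552, 0.0610 and 0.0566) and none was called. Transcript length was examined because short transcripts of other genes tended to be lower. Of 477 other genes under 1 kb that averaged at least 10 CPM, 181 fell and 41 rose, with a median log2 fold change of -0.17. Of 21 members under 1 kb at that level, 3 fell and 0 rose, with a median of -0.07. Of 30 members of 1 to 2 kb, 2 rose and 0 fell, and of 18 members over 2 kb, 0 rose and 4 fell, with medians of 0.05 and -0.00. Other genes of 1 to 2 kb at that level numbered 1521, of which 216 rose and 313 fell (median -0.04). Those over 2 kb numbered 7532, of which 1455 rose and 1373 fell (median 0.01). Only members were left out of these other genes, so cytosolic ribosomal protein genes and mitochondrial genome genes stayed in. The part of such families in the length classes was not tested. Over the 9530 other genes the correlation of length (log10) with the log2 fold change was 0.06.

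In control cells, 0 members were called with insulin in edgeR, where 1.63% of all tested genes were called, 0.483% higher and 1.15% lower. At 10 CPM or more, 3.6% of all genes were called. At an FDR of 0.05, 2.60% of members and 5.3% of all genes passed. DESeq2 also called 0, and 13 of the 77 members had an unadjusted p below 0.05, as did 16.4% of all tested genes. The median log2 fold change was 0.03 over the members and 0.00 over all genes. For all 69 members averaging at least 10 CPM the 95% confidence interval of the log2 fold change lay inside -0.5 to 0.5, the lowest bound being -0.27 and the highest 0.30. The most abundant members, MRPL51, MRPL37, MRPS27 and MRPL49, had log2 fold changes of 0.01 ± 0.0454, 0.07 ± 0.0402, -0.03 ± 0.0425 and -0.04 ± 0.0452.

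**Figure D3:**
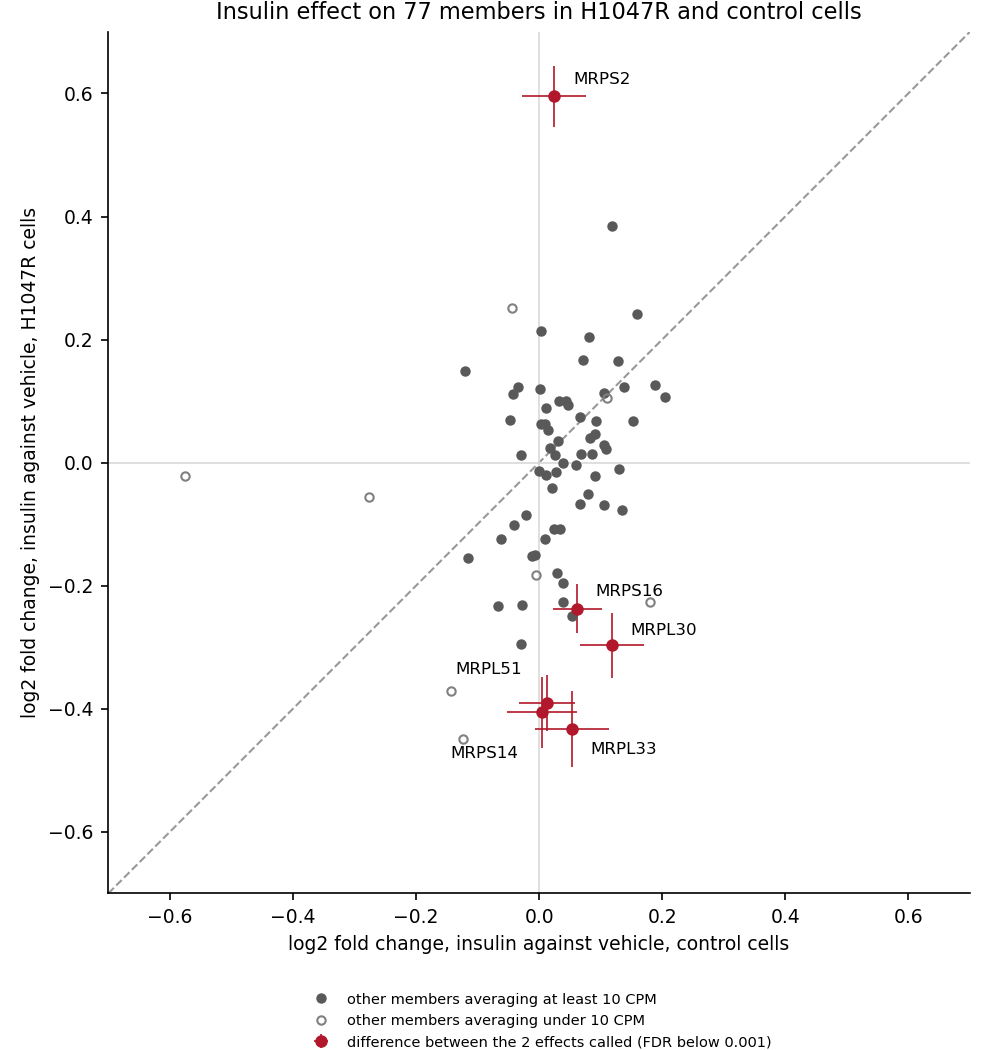
Log2 fold change with insulin in H1047R cells (y axis) against control cells (x axis) for the 77 tested members, with the dashed line marking equal effects. The 6 members in red, with SE bars, differ between the 2 effects, MRPS2 by 0.57 and the others by -0.30 to -0.49, and all 6 lie between 0.00 and 0.12 on the x axis.

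The difference of the insulin effects between H1047R and control cells was tested as an interaction. Of the 77 members 1 was positive and 5 were negative, which is 7.79%, while 9.07% of all tested genes were called, 4.58% positive and 4.49% negative. At 10 CPM or more the shares were 8.70% of members and 18.4% of all genes, and at an FDR of 0.05 they were 15.6% of members and 21.3% of all genes. Without H1047R vehicle replicate 1, 2 members were positive. Across the alternatives the numbers of all tested genes called in the interaction also moved, from 800 to 1483 positive and from 762 to 1081 negative. MRPS2 had a difference of 0.57 ± 0.0721 (adjusted p = 6.43e-08). MRPL33 had -0.49 ± 0.0860, MRPL30 -0.41 ± 0.0741, MRPS14 -0.41 ± 0.0808, MRPL51 -0.40 ± 0.0644 and MRPS16 -0.30 ± 0.0565, with adjusted p from 5.93e-06 to 0.000153. The call of MRPS14 was lost without H1047R vehicle replicate 2 (adjusted p = 0.00116).

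Promoters of these 6 genes are shown because they are the members whose response differed between the plasmids. Sequences are from RefSeq (GRCh38.p14) and run from 130 bases before to 30 bases after the start of transcription, 5′ to 3′ on the strand of the gene. Capitals mark matches, on either strand, to core motifs of nuclear respiratory factor 1 (NRF1, its palindromic core, in the MRPL30 window), ETS factors such as the GA-binding protein (CCGGAAG) and YY1 (AANATGGC).
MRPS2 (chr9:135500552-135500711, plus strand): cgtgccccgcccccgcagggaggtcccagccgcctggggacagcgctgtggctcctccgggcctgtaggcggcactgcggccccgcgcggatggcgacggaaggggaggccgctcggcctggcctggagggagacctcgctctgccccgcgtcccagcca
MRPL33 (chr2:27771589-27771748, plus strand): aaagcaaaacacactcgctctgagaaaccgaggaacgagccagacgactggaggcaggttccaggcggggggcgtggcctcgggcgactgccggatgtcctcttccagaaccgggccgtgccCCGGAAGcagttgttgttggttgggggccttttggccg
MRPL30 (chr2:99181054-99181213, plus strand): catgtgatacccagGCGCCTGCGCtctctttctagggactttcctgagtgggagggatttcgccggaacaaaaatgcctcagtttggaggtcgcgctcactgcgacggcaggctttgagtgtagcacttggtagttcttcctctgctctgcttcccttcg
MRPS14 (chr1:175023396-175023555, minus strand): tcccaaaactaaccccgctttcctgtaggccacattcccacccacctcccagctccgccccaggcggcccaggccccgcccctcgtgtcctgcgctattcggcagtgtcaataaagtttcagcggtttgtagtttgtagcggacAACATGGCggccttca
MRPL51 (chr12:6493233-6493392, minus strand): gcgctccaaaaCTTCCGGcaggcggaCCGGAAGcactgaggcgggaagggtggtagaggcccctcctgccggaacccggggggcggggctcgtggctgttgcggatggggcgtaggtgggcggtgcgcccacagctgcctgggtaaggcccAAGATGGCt
MRPS16 (chr10:73252615-73252774, minus strand): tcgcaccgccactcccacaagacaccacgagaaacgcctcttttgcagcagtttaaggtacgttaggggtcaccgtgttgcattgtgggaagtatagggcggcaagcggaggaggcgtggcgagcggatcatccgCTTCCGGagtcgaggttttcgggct

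The MRPS2 window held no match, while the 5 windows of the lower genes held at least 1 each. Over the longer window of 250 bases before to 50 after the start, 69 members had a RefSeq promoter. An ETS match was present in 30 of them (43.5%), against 21.1% of the promoters of all genes averaging at least 10 CPM and 14% of all protein-coding promoters in the table. A YY1 match was present in 26 (37.7%), against 11.8% and 7.85%. An NRF1 match was present in 9 (13%), against 12.7% and 8.24%. No promoter held overlapping matches of different motifs, and 52 (75.4%) held at least 1 match, against 38.8% and 26.2%. Among the 9 members called with insulin in H1047R cells, 6 held ETS, 3 YY1 and 1 NRF1, and MRPS2 alone held none. MRPS31, the other member that rose, held ETS, so rising and falling members were not split by matches. A match is a run of letters, and binding was not measured.

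To determine what the plasmid did in the presence of insulin, H1047R insulin was compared with control insulin. This comparison shares the H1047R insulin libraries with the first one. Here 4 members rose and 13 fell, 22.1% of those tested, while 23.5% of all tested genes were called, 11.4% higher and 12% lower. At 10 CPM or more the shares were 24.6% of members and 43.4% of all genes, and at an FDR of 0.05 they were 41.6% of members and 38.6% of all genes. The number that rose was 2 without control insulin replicate 1, control insulin replicate 2 or H1047R insulin replicate 3, and 7 without H1047R vehicle replicate 1. The number that fell was 8 without control insulin replicate 2 or H1047R insulin replicate 2. Across the alternatives the numbers of all tested genes called in this comparison also moved. MRPS2 was again highest, with a log2 fold change of 0.65 ± 0.0494. MRPL15, the homolog of bacterial L15, was at 76.0, 80.1 and 73.1 CPM in H1047R insulin against 57.3, 61.4 and 62.4 CPM in control insulin (0.34 ± 0.0486, adjusted p = 2.16e-07). MRPL15 averaged 68.9 CPM in H1047R vehicle and 65.5 CPM in control vehicle, and its control insulin libraries lay below those of control vehicle. With insulin its log2 fold change was 0.15 ± 0.0486 in H1047R cells and -0.12 ± 0.0501 in control cells, and neither was called. MRPS31 and MRPL10, which forms the base of the ribosomal stalk, rose by 0.27 ± 0.0654 and 0.24 ± 0.0533.

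The largest falls were those of MRPL30 (-0.53 ± 0.0518), MRPS14 (-0.49 ± 0.0566), MRPL33 (-0.47 ± 0.0604) and MRPL51 (-0.47 ± 0.0455). MRPS21, the homolog of bacterial S21, was at 37.3, 35.8 and 36.5 CPM in H1047R insulin against 43.0, 45.1 and 49.0 CPM in control insulin (-0.32 ± 0.0543, adjusted p = 4.40e-06). MRPL57, MRPL34, MRPS16, MRPS27, MRPS33, MRPL11, MRPL43 and MRPL42 fell by 0.20 to 0.31 on the log2 scale. MRPL42 averaged 81.9 CPM in H1047R insulin and 94.0 CPM in control insulin, but 82.1 CPM in H1047R vehicle, and the H1047R groups overlapped. The calls of MRPL34, MRPS33, MRPL11, MRPL43, MRPL42, MRPL10 and MRPS31 were each lost under 3 to 8 of 20 alternatives, with adjusted p up to 0.0137. In every case the alternatives that lost the call included leaving out control insulin replicate 2.

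With vehicle, H1047R against control cells gave 0 called members in edgeR, where 0.158% of all tested genes were called, 0.141% higher and 0.0176% lower. At 10 CPM or more, 0.344% of all genes were called, and at an FDR of 0.05, 1.21% of all genes and no member passed. DESeq2 also called 0, and 5 of the 77 members had an unadjusted p below 0.05, as did 11.9% of all tested genes. All 69 intervals of members at 10 CPM or more lay inside -0.5 to 0.5. MRPL51, MRPL37, MRPS27 and MRPL49 had log2 fold changes of -0.07 ± 0.0457, -0.07 ± 0.0406, -0.07 ± 0.0428 and -0.01 ± 0.0454.

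MRP genes were next set beside other genes of ribosomes and mitochondria in H1047R insulin against H1047R vehicle. Of 78 cytosolic ribosomal protein genes tested, 70 fell and 0 rose (89.7%), with a median log2 fold change of -0.40. Their summed level was 30408 to 30663 CPM in H1047R insulin and 38971 to 41814 CPM in H1047R vehicle. RPS29 and RPL23 fell by 0.77 ± 0.0622 and 0.69 ± 0.0466 on the log2 scale. Of 37 nuclear genes for subunits of respiratory complex I, 14 fell and 0 rose, with a median of -0.24, and NDUFB1 and NDUFA1 fell by 0.61 ± 0.0660 and 0.51 ± 0.0544. These sets thus had higher shares of called genes than the MRP genes, whose median was 0.00. For complex I the share was 37.8%, while 37.4% of all genes averaging at least 10 CPM were called. No test of the difference between lists was made. The median of all genes moved to 0.03 with scaling by library totals alone, and under all 20 alternatives the medians stayed between -0.02 and 0.05 for MRP genes and between -0.41 and -0.36 for cytosolic ribosomal protein genes.

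The messages that the mitochondrial ribosome translates and its own rRNAs were lower. All 13 mRNAs of the mitochondrial genome fell with insulin in H1047R cells, with a median log2 fold change of -0.49 and a summed level of 12714 ± 7.21 CPM in H1047R insulin against 17963 ± 322 CPM in H1047R vehicle. MT-CYB, which encodes cytochrome b, fell to 1042 ± 23.3 CPM in H1047R insulin, against 1834 ± 74.3 CPM in H1047R vehicle (log2 fold change -0.82 ± 0.0350). In control cells 7 of the 13 fell, with a median of -0.22. The small subunit rRNA MT-RNR1 was at 724 ± 49.8 CPM in H1047R insulin and 1410 ± 89.1 CPM in H1047R vehicle, and the large subunit rRNA MT-RNR2 fell by 0.23 ± 0.0312 on the log2 scale. In control cells MT-RNR2 also fell with insulin, by 0.21 ± 0.0312, while MT-RNR1 was not called. The interaction was called for MT-RNR1 (-0.69 ± 0.0792) and not for MT-RNR2. The libraries were made by poly(A) selection, so levels of rRNA are those of the part recovered.

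**Figure D4:**
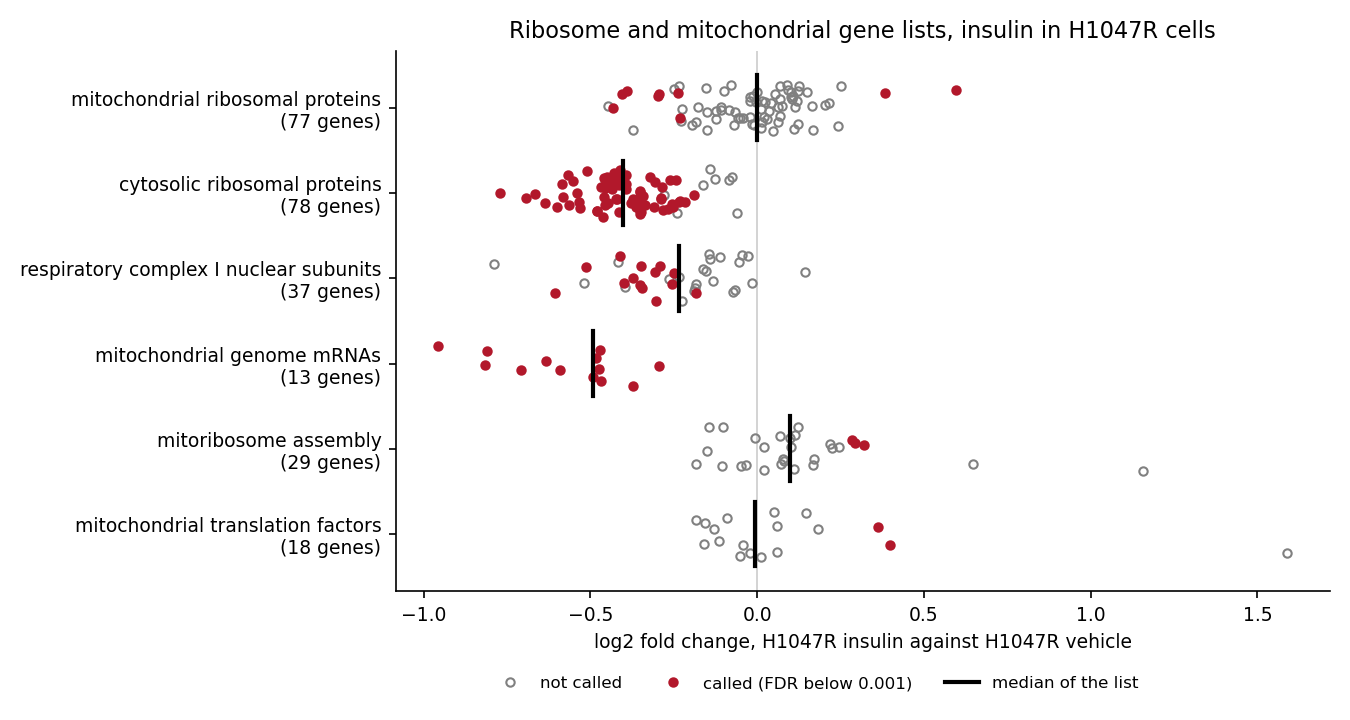
Log2 fold change of each tested gene in H1047R insulin against H1047R vehicle (x axis) for 6 gene lists, with called genes in red and the list median as a black line. Cytosolic ribosomal protein genes (median -0.40) and mitochondrial genome mRNAs (-0.49) lie below zero, whereas MRP genes centre on 0.00.

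Partner genes of the mitochondrial ribosome were mixed. Of 5 mitoribosomal proteins whose symbols fall outside the rule, CHCHD1, a small subunit protein, fell to 34.7 ± 2.50 CPM in H1047R insulin, against 41.4 ± 2.02 CPM in H1047R vehicle. Of 29 assembly factor genes tested, 3 rose and 0 fell (10.3%), with a median of 0.10. Of all tested genes 19.6% were called, 9.85% higher and 9.8% lower. The 3 were MTERF3, MPV17L2 and MRM3, an rRNA methyltransferase of the large subunit (log2 fold changes 0.32, 0.29 and 0.29). The number of assembly factor genes that rose was 0 without H1047R vehicle replicate 3 and 5 without H1047R vehicle replicate 1. It was 7 with scaling by library totals alone or without a filter on low counts. It was 1 without H1047R insulin replicate 2 or 3, H1047R vehicle replicate 2 or control insulin replicate 2. Across the alternatives the numbers of all tested genes called with insulin in H1047R cells also moved. They ran from 1739 to 2757 higher and from 1732 to 2245 lower. Of 18 translation factor genes, the release factor MTRF1L and TACO1, a translational activator of COX1, rose by 0.40 ± 0.0738 and 0.36 ± 0.0567. Of 14 genes of mitochondrial transcription and biogenesis, PPRC1, a coactivator of the PGC-1 family, rose to 80.6 ± 3.08 CPM in H1047R insulin, against 58.4 ± 1.09 CPM in H1047R vehicle, and YY1 fell to 168 ± 3.73 CPM in H1047R insulin, against 196 ± 11.4 CPM in H1047R vehicle. In H1047R insulin against control insulin, 3 of the 14 rose and 3 fell (42.9%), while 23.5% of all tested genes were called. GABPA, an ETS factor, was at 46.0 ± 1.23 CPM in H1047R insulin and 57.8 ± 1.60 CPM in control insulin (log2 fold change -0.33 ± 0.0552). Its level was 51.1 ± 5.03 CPM in H1047R vehicle, and it was not called with insulin in H1047R cells. MYC was at 45.7 ± 1.55 CPM in H1047R insulin and 45.1 ± 1.18 CPM in H1047R vehicle, and was not called between them. In control insulin it was at 31.6 ± 0.625 CPM and in control vehicle at 41.3 ± 0.717 CPM, a log2 fold change of -0.39 ± 0.0527. The log2 fold change of MYC in H1047R insulin against control insulin was 0.53 ± 0.0509, and its interaction was 0.41 ± 0.0724, also called.

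Many MRP genes share a start region with a gene on the other strand, and 25 members had a tested partner starting within 1000 bases. With insulin in H1047R cells, 3 of these members and 8 of the partners were called, and both genes of the pair in 1 case, MRPL51 and the condensin gene NCAPD2, while 19.6% of all tested genes were called. MRPL49 starts beside FAU, a cytosolic ribosomal protein gene. FAU fell by 0.43 ± 0.0501 on the log2 scale while MRPL49 had a log2 fold change of 0.11 ± 0.0447, which was not called. MRPL30 fell while its partner MITD1 had a log2 fold change of 0.19 ± 0.0695, which was not called, and MRPL43 lies beside TWNK, the mitochondrial DNA helicase, with 0.26 ± 0.0639 (adjusted p = 0.00110, not called).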

How the data were processed

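RNA-seq libraries of 12Z cells (3 per group, 4 groups) were analysed. The submitters' notes name Trim Galore, cutadapt and FastQC for read trimming and quality, and STAR with hg38 for alignment. What the authors deposited are raw, unnormalized counts of read pairs placed at 1 site, by gene. Versions of these tools were not stated in the sources used here. For gene annotation the methods name a mouse GENCODE release, so the human release behind the counts is not known. Reverse-strand counts were used. Rows for unmapped (up to 4.09%), multiply placed (8.48 to 15.4%), unassigned (up to 4.55%) and ambiguous reads (up to 3.61%) stayed out of library sizes and tests. Of 60617 identifiers, 60357 were matched in GENCODE, which gave names, coordinates and lengths.

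The filter kept genes with a mean of 1 count or more, and edgeR 4.0.16 (R 4.3.3; TMM, glmQLFit, glmQLFTest) was run in 1 fit of 12 libraries with 8 residual degrees of freedom, and called at a Benjamini-Hochberg FDR below 0.001. SE is the absolute log2 fold change over the square root of F. Alternatives were DESeq2 1.42.0, other scalings, filters, strand and threshold, a replicate block and leaving out each library. The test was checked on simulated counts. Replicates differed beyond counting noise (chi-square per degree of freedom 2.70 to 5.90). Members and lists were chosen with earlier results of these data known. Members named were the called ones averaging at least 1 CPM (at most 12 in each direction, and MRPL42 as a 13th), the 4 most abundant where fewer than 4 were called, the MRPS18 paralogs, members with the 5 highest and 3 lowest levels per kilobase and any failing the filter. Up to 3 called genes per comparison were eligible from each other list, and partners and genes named outside the rule were chosen after their values were seen.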

Additional observations from a re-analysis of the deposited data

Results flagged for a closer look

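The insulin effect differed between H1047R and control cells for 6 members, by the interaction term of the edgeR fit. That is 7.79% of the members tested, while 9.07% of all tested genes were called, and 18.4% of those averaging at least 10 CPM. The difference of the log2 fold changes was 0.57 for MRPS2, with an insulin effect of 0.60 in H1047R cells and 0.02 in control cells. It was -0.49 for MRPL33 (-0.43 in H1047R cells and 0.05 in control cells) and -0.41 for MRPL30 (-0.30 and 0.12 in the same order). It was -0.41 for MRPS14 (-0.41 in H1047R cells and 0.00 in control cells), -0.40 for MRPL51 (-0.39 and 0.01) and -0.30 for MRPS16 (-0.24 and 0.06). All 6 were also called in H1047R insulin against H1047R vehicle and against control insulin, comparisons that share the H1047R insulin libraries, and PIK3CA was highest in those libraries.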

How the results depend on the processing

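Medians of the log2 fold changes of the 77 members moved by less than 0.0534 under all alternatives. That value is the pooled SD within groups of the member median of single libraries, on the log2 scale. It is not the spread of a difference between groups, so it does not show that the medians were stable. With insulin in H1047R cells the median ran from -0.02 to 0.05. At an FDR of 0.05, 9 members rose and 15 fell with insulin in H1047R cells (34.3% of all genes called), 2 rose with insulin in control cells, 7 rose and 25 fell with H1047R in insulin, and 3 were positive and 9 negative in the interaction. The numbers of all tested genes called also moved across the alternatives in each comparison. The member counts that follow were not shown to change more than those of all genes. With insulin in H1047R cells, 5 rose when libraries were scaled by totals only and 7 without a filter on low counts. With H1047R in insulin, 8 fell under library totals only and 7 rose in a fit of those 2 groups. In the interaction 2 were positive without the filter. Leaving out 1 library gave 2 to 10 higher and 7 to 8 lower with insulin in H1047R cells, 2 to 7 higher and 8 to 13 lower with H1047R in insulin, and 1 to 2 positive and 4 to 6 negative in the interaction. The 10 came without H1047R vehicle replicate 1, as did the 7 higher and the 2 positive. The 2 higher came without control insulin replicate 1 or 2 or H1047R insulin replicate 3, and the 8 lower without control insulin replicate 2 or H1047R insulin replicate 2. The causes were not tested beyond what each change of filter or samples does by itself. For single members, 40 fold changes were recomputed, which gave 794 values under the alternatives. Of these 754 kept their side of the threshold, and 40, from 8 of the fold changes, lost a call. None was reversed in all alternatives, and fold changes close to zero may have changed sign in some.

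The replicate block was tried as an alternative only. Deviations of same-numbered libraries of different groups had correlations from -0.0580 to 0.0873, and those of differently numbered ones from -0.0862 to 0.0884. These ranges overlap, so pairing by number was not shown, and such values cannot exclude it. Between H1047R vehicle and H1047R insulin, same-numbered libraries had 0.0873, 0.0424 and 0.0255, and differently numbered ones -0.0862 to 0.0597. With the block 3 members rose and 7 fell with insulin in H1047R cells. Depth limits the 8 members under 10 CPM most.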

Other observations

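MRPL19 and MRPL35 passed an FDR of 0.05 but not 0.001 with insulin in control cells, and both were named after their values were seen. MRPL19, the homolog of bacterial L19, was at 95.1, 90.7 and 90.3 CPM in control insulin against 81.7, 80.2 and 77.5 CPM in control vehicle, a log2 fold change of 0.21 ± 0.0464 (edgeR adjusted p = 0.00345). MRPL35, the homolog of bacterial L35, was at 64.9, 63.5 and 65.3 CPM in control insulin against 56.6, 57.3 and 55.9 CPM in control vehicle, a log2 fold change of 0.19 ± 0.0480 (adjusted p = 0.0108). In H1047R cells the same genes had log2 fold changes of 0.11 and 0.13 with insulin, and the differences between the effects were -0.10 ± 0.0655 and -0.06 ± 0.0676, which did not pass the test (adjusted p = 0.336 and 0.599).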
